A study of Mus musculus with 6 samples.

Results

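The proteins that coat the fat droplet of an adipocyte, and the lipases that work on its surface, were described here through the mRNAs of 10 genes in primary mouse adipocytes. The 10 genes were taken by symbol from the table of normalized counts: the CIDE genes Cidea and Cidec, the perilipins Plin1, Plin2, Plin3, Plin4 and Plin5, the lipases Pnpla2 and Lipe, and the lipase coactivator Abhd5. All 10 were found among the 35976 rows of the table. RNA came from cells of genotype Ppargc1a(fl/fl), in which loxP sites flank Ppargc1a, the gene of the coactivator PGC-1alpha. Every culture received an adenovirus and an siRNA and was then differentiated. There were 3 groups of 2 libraries. The control group had the GFP virus and control siRNA, the siRNA group had the GFP virus and Rbm43 siRNA, and the Cre group received Cre virus plus that same Rbm43 siRNA. Rbm43 encodes an RNA-binding protein, and Cre is the recombinase that removes DNA between loxP sites. All libraries share the floxed genotype, and the siRNA and Cre groups share the Rbm43 siRNA. The study's description calls the samples biological duplicates, and the labels name no animals, so p-values measure the spread between these samples, which may be technical. None of the 3 groups had Cre virus with control siRNA, so the effect of that combination could not be analysed here.

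A fat droplet is a core of triglyceride under a single layer of phospholipid, and perilipins sit on that layer. In a resting fat cell PLIN1 holds ABHD5 (also called CGI-58) away from the triglyceride lipase ATGL, the product of Pnpla2. When protein kinase A is activated, PLIN1 releases ABHD5, which then stimulates ATGL, and hormone-sensitive lipase, the product of Lipe, takes the next step from diglyceride. CIDE proteins gather where droplets touch and move lipid from the smaller droplet to the larger. CIDEC is the main form in white fat, while CIDEA is abundant in brown fat, and PLIN5 is typical of tissues that oxidise much fat and links droplets to mitochondria.

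The perilipin genes Plin3, Plin4 and Plin5 lie on one stretch of chromosome 17 (build mm10, annotation GENCODE M21). Plin4 (56100591 to 56109803) and Plin5 (56111601 to 56117596) follow each other on the minus strand with a gap of 1797 bases, and the start of Plin3 (56277476 to 56292873, minus strand) is 175 kb from that of Plin5. Plin2 is on chromosome 4 (86648386 to 86670060, minus strand) and Cidec on chromosome 6 (113424634 to 113435760, minus strand). Lipe (25379527 to 25398710, minus strand), Plin1 (79720218 to 79732903, minus strand) and Pnpla2 (141455198 to 141460743, plus strand) are on chromosome 7, and Abhd5 is on chromosome 9 (122351608 to 122381524, plus strand).

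The upstream sequences of Plin5 and Plin4 are shown because Plin5 rose with Rbm43 siRNA in the results that follow while its neighbour Plin4 did not pass the test. Those of Plin2 and Abhd5 are shown because, with Plin5, they hold the half-site AGGTCA that nuclear receptors bind. Each runs 5′ to 3′ on the gene's own strand over 200 bases, ending 51 bases before the RefSeq start site (build GRCm38.p6), and capitals mark AGGTCA or its reverse complement. Plin5 is chr17:56117599-56117798 on the minus strand, Plin4 chr17:56109833-56110032 on the minus strand, Plin2 chr4:86670110-86670309 on the minus strand and Abhd5 chr9:122351366-122351565 on the plus strand.
Plin5: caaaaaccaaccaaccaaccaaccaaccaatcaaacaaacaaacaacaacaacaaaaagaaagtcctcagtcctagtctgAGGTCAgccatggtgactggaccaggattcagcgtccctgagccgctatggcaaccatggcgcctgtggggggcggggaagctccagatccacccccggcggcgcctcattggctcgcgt
Plin4: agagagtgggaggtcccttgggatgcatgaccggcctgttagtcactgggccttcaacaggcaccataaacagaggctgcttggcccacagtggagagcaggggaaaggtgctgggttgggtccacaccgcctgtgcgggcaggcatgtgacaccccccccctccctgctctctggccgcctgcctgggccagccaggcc
Plin2: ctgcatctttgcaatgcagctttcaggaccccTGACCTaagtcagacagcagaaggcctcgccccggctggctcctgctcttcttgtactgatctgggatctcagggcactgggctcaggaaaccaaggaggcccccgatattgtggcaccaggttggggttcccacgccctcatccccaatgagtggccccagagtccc
Abhd5: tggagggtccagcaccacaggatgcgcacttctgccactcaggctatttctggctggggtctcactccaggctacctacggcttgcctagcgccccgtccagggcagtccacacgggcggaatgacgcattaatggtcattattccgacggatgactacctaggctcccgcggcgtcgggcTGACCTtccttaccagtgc

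The motif search covered the 250 bases before each RefSeq start on both strands, in the 9 members whose windows were used. The half-site began 170 bases before the more upstream of the 2 RefSeq starts in Plin5, 218 in Plin2 and 69 in Abhd5. It was in the window of 3 of the 9 genes, and 15.8% of the 27025 genes with a window held it. A pair of half-sites with 1 base between them, AGGTCANAGGTCA, was in 0 of the 9 and in 0.0407% of all genes. The longer site TNAAGGTCA, which contains the half-site, was in 0 of the 9 and in 1.3% of all. The letters CCAAT were found before Plin2, Plin3, Plin4 and Plin5 (37.5% of all genes), CACGTG before Lipe (6.86%), TGACG before Abhd5 (19.8%) and TATAAA before 0 of the 9 (14.3%). These matches describe letters in short windows and are not evidence of binding.

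The libraries held between 15775398 and 21961724 reads in genes. Rbm43 had 185 and 224 normalized counts in the control group and between 32.5 and 53.8 in the 4 libraries of the other groups. Ppargc1a had 163 and 202 in the control group, 399 and 423 in the siRNA group and 463 and 469 in the libraries labelled Cre virus. A count over the whole Ppargc1a gene includes exons that Cre does not remove, so it does not check the deletion, and directions follow the labels. The 10 mature adipocyte markers were detected in every library, with summed normalized counts of 264226 to 281049, 360518 to 368956 and 306650 to 310329 in the 3 groups in the order above. The preadipocyte or fibroblast markers summed to 616395 to 620974, 573861 to 600237 and 623551 to 628163, the macrophage markers to between 1638 and 1933 in all 6 libraries, and the mural or smooth muscle markers to 52359 to 57822, 59901 to 62611 and 71863 to 75230. Most of the preadipocyte or fibroblast sum came from the collagen genes Col1a1 and Col3a1, with control means of 268228 and 282088. Fabp4 and Lpl were the largest parts of the adipocyte sum, with control means of 131670 and 79308. None of the markers in these 4 lists was at 0 over a whole group. The 7 endothelial markers summed to 253 to 259, 282 to 287 and 322 to 354, and 3 of the 4 skeletal muscle markers were at 0 in every group.

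Levels of the 10 genes were compared per kilobase of exon, since longer mRNAs give more reads. In the control group, Pnpla2 (7035 ± 800 normalized counts per kb), Cidec (6070 ± 487) and Plin2 (5326 ± 192) stood at the top (SD, n = 2 each). The lower library of Pnpla2 (6469) lay just above the higher of Cidec (6415), and the lower of Cidec (5726) just above the higher of Plin2 (5462), so these neighbours in the order differed by little more than their spread. Plin4 (2091 ± 124), Plin1 (1625 ± 34.4), Lipe (1511 ± 82.4) and Abhd5 (1136 ± 46.0) followed, and the lower library of Plin1 (1601) lay close to the higher of Lipe (1569). Cidea (405 ± 46.2), Plin3 (331 ± 4.25) and Plin5 (216 ± 9.15) were the lowest (SD, n = 2 each). In the siRNA group, Cidec (8455 ± 429) and Pnpla2 (8126 ± 304) overlapped at the top, and Cidea (1672 ± 35.8) lay at the level of Abhd5 (1625 ± 53.1), with overlapping libraries. Plin5 (396 ± 14.2) lay above Plin3 (357 ± 7.64) in that group (SD, n = 2 each). In the Cre group the order of the means was that of the control group. The 10 genes together took 0.380% and 0.404% of all normalized counts in the control group, 0.483% and 0.504% in the siRNA group, and 0.430% and 0.435% in the Cre group.

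**Figure D1:**
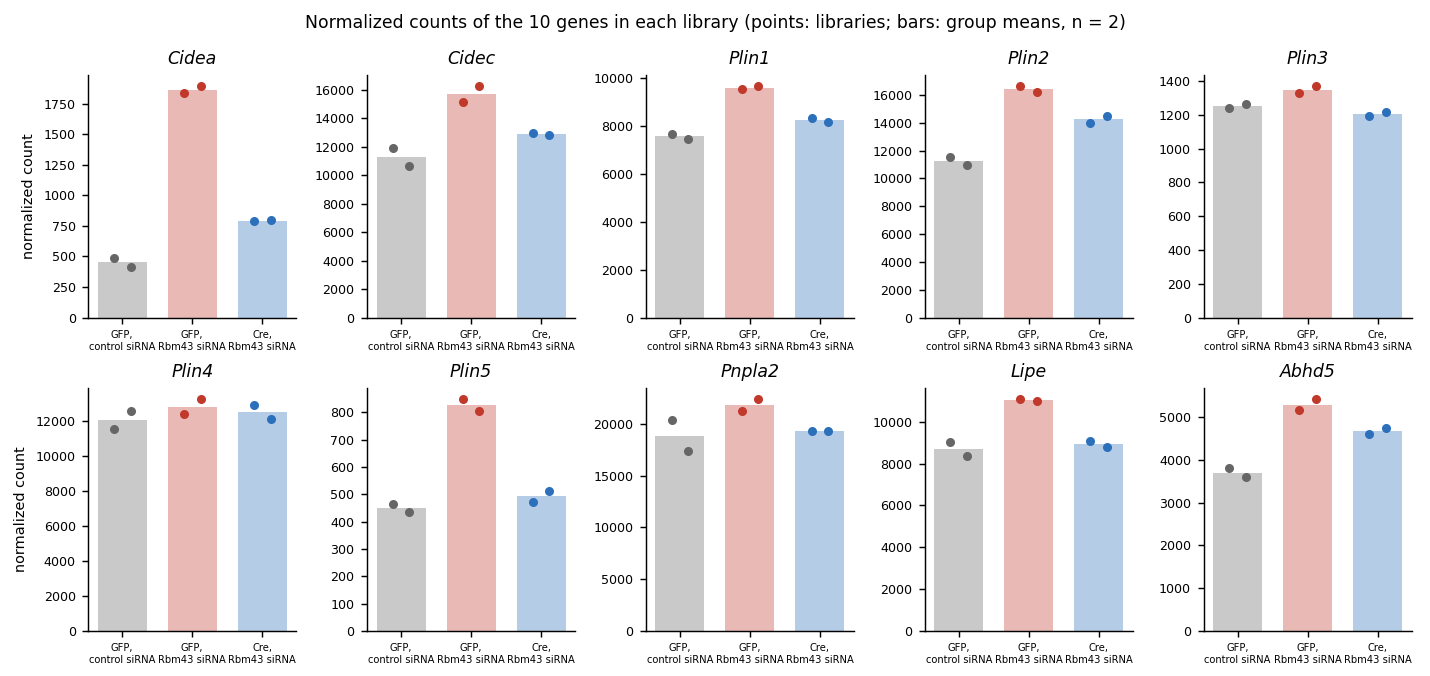
Normalized count (vertical axes, each from 0) of each of the 10 genes in the 6 libraries; points are libraries and bars are group means of 2. Cidea and Plin5 are highest in both libraries of the siRNA group, at 1836 and 1893 and at 848 and 806, while the 3 groups of Plin4 overlap.

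The first comparison set the siRNA group against the control group, which share the GFP virus and differ in the siRNA. Both CIDE genes, 3 of the 5 perilipins, both lipases and Abhd5 rose, and all 10 differences were above 0, the lowest at 0.09. The 8 rises compare with 13.5% of the 14211 genes tested that rose and 9.76% that fell (limma, Benjamini-Hochberg adjusted p under 0.05). The split over all genes, 1914 rises and 1387 falls, was 1678 and 1679 with scaling to the total and 1725 and 1593 with upper-quartile scaling, and 8 of the 10 genes passed under both. The median log2 fold change of the 10 was 0.41, against -0.01 over all genes tested. The adipocyte marker sum was also higher in these libraries, as given above, and without Fabp4 the other 9 markers summed to 143203 and 138733 in the control group and to 169435 and 178439 in the siRNA group. Among these 9, the mean of Gpd1 went from 26944 to 48554 and that of Lpl from 79308 to 89718. Of the 10 adipocyte markers 6 rose and 2 fell, 3 of 9 tested preadipocyte or fibroblast markers fell, and 3 of 7 mural markers rose. The adipokine gene Adipoq had 22094 and 21331 normalized counts in the control group and 22453 and 23077 in the siRNA group (limma adjusted p = 0.314). In bulk RNA a different number of adipocytes and a different amount of RNA per adipocyte cannot be told apart, and the part of either in these results was not tested.

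Cidea, the CIDE gene of brown fat, had 488 and 415 normalized counts in the control group and 1836 and 1893 in the siRNA group. Both siRNA libraries were far above both controls. The log2 fold change was 2.05 ± 0.07 (SE), a 4.14-fold rise (limma adjusted p = 5.92e-13). Limma without the mean-variance trend gave the same fold change with adjusted p = 0.0128. Cidec, whose product enlarges droplets in white fat, had 11906 and 10627 in the control group and 15130 and 16256 in the siRNA group. It rose by 0.48 ± 0.05 on the log2 scale (adjusted p = 2.29e-06), again with no overlap. Cidea therefore gained on Cidec within each library: their log2 ratio per kb went from -3.87 and -3.94 to -2.31 and -2.37, or from 0.0666 to 0.198 Cidea per Cidec. Such ratios are given as descriptions and were not tested. Overlap between groups is likewise only described, here and below. Groups of 2 libraries can part by chance, and the share of all genes without overlap was not computed.

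Plin5 rose most among the perilipins. It had 464 and 437 normalized counts in the control group and 848 and 806 in the siRNA group, a log2 fold change of 0.87 ± 0.08 (adjusted p = 7.63e-08). Plin2, which coats droplets in most cell types, had 11525 and 10952 in the control group and 16643 and 16191 in the siRNA group. It rose by 0.55 ± 0.05 (adjusted p = 7.10e-08). Plin1, the perilipin of mature adipocytes that controls lipolysis, had 7668 and 7442 in the control group and 9533 and 9654 in the siRNA group, a rise of 0.34 ± 0.05 (adjusted p = 1.20e-05). For each of these 3 genes both siRNA libraries lay above both controls.

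Plin3 and Plin4 did not pass the test. Plin3, a widely expressed perilipin, had 1243 and 1266 normalized counts in the control group and 1329 and 1370 in the siRNA group, a log2 difference of 0.11 with a 95% interval of -0.01 to 0.22 (adjusted p = 0.203). Its groups did not overlap, but the interval of the difference included 0. Plin4, an adipocyte perilipin with a long run of repeats, had 11573 and 12587 against 12401 and 13263, a difference of 0.09 with an interval of -0.02 to 0.20 (adjusted p = 0.265). Here the groups overlapped. Plin4 passed without replicate 2 of the control group (0.15, adjusted p = 0.0283). The interval of Plin4 ends below the lower bounds of Plin5 (0.72), Plin2 (0.45) and Plin1 (0.25).

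The lipase genes Lipe and Pnpla2 and the coactivator gene Abhd5 all rose. Abhd5, the coactivator of ATGL, had 3807 and 3596 normalized counts in the control group and 5175 and 5420 in the siRNA group, a rise of 0.52 ± 0.05 on the log2 scale (adjusted p = 3.02e-07). Lipe had 9018 and 8349 in the control group and 11064 and 10972 in the siRNA group, a rise of 0.34 ± 0.05 (adjusted p = 2.72e-05). Pnpla2 had 20393 and 17356 in the control group and 21224 and 22379 in the siRNA group, a rise of 0.21 ± 0.06 (adjusted p = 0.0142). The 2 control libraries of Pnpla2 lay further apart than those of the other lipase genes, and the higher came near the lower siRNA library. Its difference was 0.10 (adjusted p = 0.156) without replicate 2 of the control group, and its call was also lost without replicate 2 of the siRNA group or without either Cre library, and under other settings given in the closing section. The ratio of Abhd5 to Pnpla2 per kb was 0.162 in the control group and 0.200 in the siRNA group, and on the log2 scale its libraries did not overlap (-2.70 and -2.55 against -2.32 and -2.33).

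**Figure D2:**
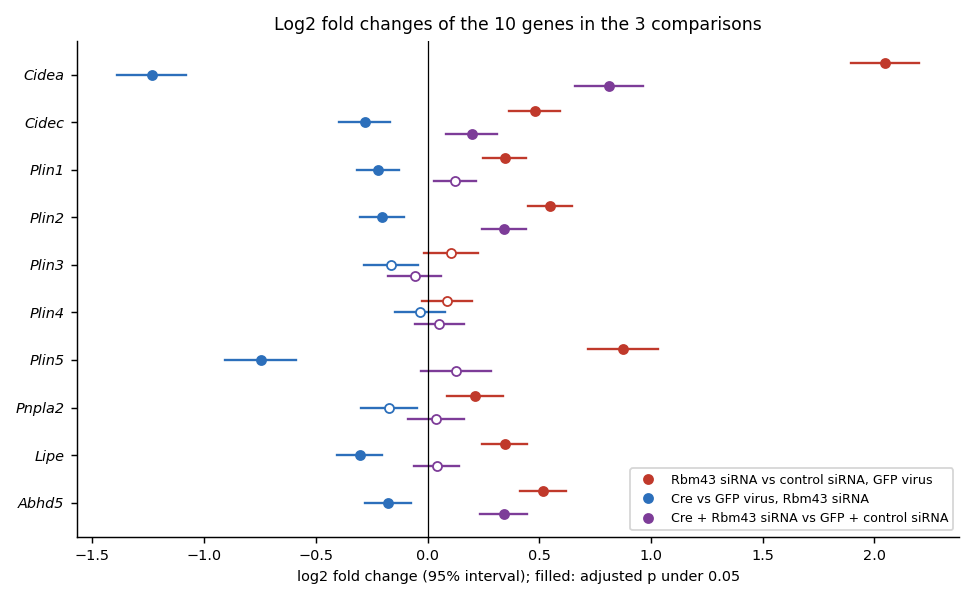
Log2 fold changes (horizontal axis) of the 10 genes with 95% intervals from the limma fit in the 3 comparisons, each filled where the adjusted p was under 0.05. Cidea lies at 2.05, -1.24 and 0.81, and Plin4 has an open symbol in all 3 comparisons.

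Genes that act on the lipases changed in both directions. Of 29 genes in the list of lipase partners and lipolysis, 16 rose and 5 fell with Rbm43 siRNA. Over all genes tested 13.5% rose and 9.76% fell, and the list's median log2 fold change was 0.15. Gnai1, an inhibitory G protein subunit, rose by 0.92 from 820 and 788 to 1537 and 1512 normalized counts, and the phosphodiesterase gene Pde3b, whose enzyme lowers cyclic AMP, rose by 0.59 from 3636 and 3809 to 5530 and 5642. Adrb3, the adrenergic receptor that starts lipolysis in mouse fat, fell by 0.69 from 1595 and 1585 to 979 and 988 (limma adjusted p = 5.57e-08). The adrenergic receptor gene Adrb1, named after its value was seen, rose by 1.07 at low counts. Adrb1 had 32.2 and 28.0 normalized counts in the control group, 62.1 and 66.2 in the siRNA group and 29.4 and 29.0 in the Cre group. The fatty acid carrier Fabp4 rose by 0.54 and the lysosomal lipase gene Lipa by 0.44. G0s2, whose product inhibits ATGL, rose by 0.33 from 4193 and 3896 to 5291 and 4907 (adjusted p = 9.09e-05). The log2 ratio of G0s2 to Pnpla2 per kb overlapped between groups, at -0.66 and -0.53 against -0.38 and -0.57.

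Of 33 tested genes of droplet formation and surface, 13 rose and 1 fell with Rbm43 siRNA, beside 13.5% and 9.76% of all genes tested. The list's median was 0.03. The 5 with the smallest p all rose. They were Lpin1, which makes diglyceride for triglyceride synthesis (0.56), Aifm2 (0.61), the lipid transfer gene Vps13c (0.47), Fitm2, which helps droplets form (0.48), and Clstn3 (0.82). The Clstn3 gene also encodes a short form found on brown fat droplets, which a count over the whole gene does not separate. Spg20, named after its value was seen, was the gene that fell, by 0.21 (adjusted p = 0.0201). Fitm1 and Hsd17b13 were too low to test. Brown or beige adipocyte markers rose in the same libraries: 6 of 8 rose, with a median of 0.94 and a lowest value of 0.11. Their summed normalized counts were 7128 to 7876 in the control group, 10651 to 10797 in the siRNA group and 7048 to 7235 in the Cre group. Elovl3 was the largest part of that sum, with means of 4709, 5094 and 3835 in the same order. Ucp1 had 284 and 248 in the control group, 1043 and 909 in the siRNA group and 445 and 459 in the Cre group. Between the Cre and control groups, 4 of the 8 markers were higher in the Cre group and 2 lower. The part of these markers in these results was not tested.

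The second comparison set the Cre group against the siRNA group, which share the Rbm43 siRNA and differ in the virus. Cre virus was meant to remove Ppargc1a. An effect of the Cre virus itself cannot be told apart from that intended loss in these groups. It uses the siRNA libraries of the first comparison with the opposite sign, so opposite directions in the 2 comparisons are not independent. Cidea, Cidec, Plin1, Plin2, Plin5, Lipe and Abhd5 fell, and all 10 differences were below 0, the highest at -0.03. The 7 falls compare with 5.88% of all genes tested that fell and 2.62% that rose (limma adjusted p under 0.05). The median of the 10 was -0.21, against 0.00 over all genes. Without replicate 1 or without replicate 2 of the Cre group 3 passed, Cidea, Plin5 and Lipe, and without replicate 1 or 2 of the siRNA group 5 passed. Limma without the mean-variance trend called 0 of the 10 and had 8 at an unadjusted p under 0.05 (edgeR and DESeq2 each called 7). Scaling to the total moved the split over all genes from 372 rises and 836 falls to 565 and 734, and 6 of the 10 then passed.

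Cidea fell from 1836 and 1893 normalized counts to 788 and 795 in the libraries labelled Cre virus, a log2 fold change of -1.24 ± 0.07 (limma adjusted p = 1.46e-08). Plin5 fell from 848 and 806 to 473 and 512, a change of -0.75 ± 0.08 (adjusted p = 5.22e-06). Lipe fell from 11064 and 10972 to 9066 and 8786, a change of -0.30 ± 0.05 (adjusted p = 4.18e-04). For these 3 genes the libraries of the 2 groups were well apart.

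The other falls were smaller. Cidec went to 12990 and 12816 normalized counts (-0.28 ± 0.05 on the log2 scale, adjusted p = 0.00229) and Plin1 to 8322 and 8144 (-0.22 ± 0.05, adjusted p = 0.00345). Plin2 went to 14000 and 14524 (-0.20 ± 0.05, adjusted p = 0.00863) and Abhd5 to 4610 and 4761 (-0.18 ± 0.05, adjusted p = 0.0308). The groups of these 4 genes did not overlap, a description given without its share over all genes. The call of Abhd5 was also lost with total scaling (-0.15, adjusted p = 0.0634), with no filter on low genes, and without either replicate of the siRNA or Cre group.

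Pnpla2, Plin3 and Plin4 did not pass. Pnpla2 had 19342 and 19292 normalized counts in the Cre group, a difference of -0.17 with a 95% interval of -0.30 to -0.05 (adjusted p = 0.0849). Plin3 had 1192 and 1218, a difference of -0.16 with an interval of -0.28 to -0.04 (adjusted p = 0.0890). In a fit of only the 2 groups compared, both passed (adjusted p = 0.00138 and 0.0244), as they did without either control library. Plin4 had 12941 and 12118, a difference of -0.03 with an interval of -0.15 to 0.08 (adjusted p = 0.780), and its direction turned without replicate 2 of the siRNA group (0.0140) or without replicate 2 of the Cre group (0.0130).

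Among lipase partners, 13 of 29 fell and 1 rose in the Cre group (median -0.19). Over all genes tested 5.88% fell and 2.62% rose in this comparison. The carboxylesterase Ces1d fell by 0.64 from 1129 and 1295 to 764 and 792 normalized counts. The glycerol channel gene Aqp7 fell by 0.41, Prkar2b, a regulatory subunit of protein kinase A, by 0.36, Pde3b by 0.31 and Fabp5 by 0.28. Rdh10, a retinol dehydrogenase gene named after its value was seen, was the gene that rose, by 0.32 (adjusted p = 0.0419). Of 33 genes of droplet formation and surface, 10 fell and the other 23 did not pass (median -0.14), among them Aifm2 by 0.35, Lpin1 by 0.32, Fitm2 by 0.31, the sterol enzyme Nsdhl by 0.30 and the caveolae gene Cav1 by 0.23. Of the 10 mature adipocyte markers 7 fell and 3 did not pass (median -0.33), Adipoq by 0.32, and of 8 brown or beige markers 5 fell and 3 did not pass (median -0.41). Of 7 mural or smooth muscle markers, 6 rose (median 0.31), and the 9 tested preadipocyte or fibroblast markers lay between -0.15 and 0.28 and did not pass. The part of these markers in the falls of the droplet genes was not tested.

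The third comparison set the Cre group against the control group. Virus and siRNA both differ here, and the libraries are shared with the first and second comparisons. Cidea, Cidec, Plin2 and Abhd5 were higher, and the lowest difference of the 10 was -0.06. The 4 rises compare with 8.47% of all genes that rose and 6.28% that fell (limma adjusted p under 0.05), and the median of the 10 was 0.13, against -0.0018 over all genes. Cidea was higher by 0.81 ± 0.07 on the log2 scale (788 and 795 against 488 and 415 normalized counts, adjusted p = 2.79e-07). Plin2 was higher by 0.34 ± 0.05 (14000 and 14524 against 11525 and 10952, adjusted p = 3.96e-05) and Abhd5 by 0.34 ± 0.05 (4610 and 4761 against 3807 and 3596, adjusted p = 7.64e-05). Limma without the mean-variance trend called only Cidea of the 10, with adjusted p = 0.0605 for Plin2 and 0.0654 for Abhd5. Cidec was higher by 0.20 ± 0.05 (12990 and 12816 against 11906 and 10627, adjusted p = 0.0180), a call lost without replicate 2 of the control group (0.12, adjusted p = 0.108) and without either replicate of the Cre group. Of the 10 mature adipocyte markers 3 rose and 4 fell in this comparison, of 8 brown or beige markers 4 rose and 2 fell, all 7 mural or smooth muscle markers rose (median 0.55), and 2 of 9 tested preadipocyte or fibroblast markers fell. Their part in these results was not tested.

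The 6 other genes did not pass here. Plin5 had 473 and 512 normalized counts against 464 and 437 in the control group, a difference of 0.13 with an interval of -0.03 to 0.29 (limma adjusted p = 0.295). Lipe had 9066 and 8786 against 9018 and 8349, overlapping groups with a difference of 0.04 and an interval of -0.06 to 0.14 (adjusted p = 0.644). Pnpla2 also overlapped (0.04, interval -0.09 to 0.16, adjusted p = 0.742), and lay at 0.15 (adjusted p = 0.0197) without replicate 1 of the control group and at -0.08 without replicate 2. Plin1 differed by 0.12 (interval 0.03 to 0.22, adjusted p = 0.0737) with no overlap, and it passed without replicate 1 of the control group (0.15, adjusted p = 0.0243). Plin3 lay at -0.06 (interval -0.18 to 0.06) and Plin4 at 0.05 (interval -0.06 to 0.16), with adjusted p = 0.565 and 0.573.

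Set side by side, the 3 comparisons gave Cidea 2.05, -1.24 and 0.81 and Plin5 0.87, -0.75 and 0.13. They gave Plin2 0.55, -0.20 and 0.34 and Abhd5 0.52, -0.18 and 0.34, while Lipe had 0.34, -0.30 and 0.04. Hilpda, whose product inhibits ATGL, had 300 and 327 normalized counts in the control group, 421 and 378 in the siRNA group, and 455 and 470 in the Cre group. Its differences were 0.35 (adjusted p = 0.00672), 0.21 (adjusted p = 0.163) and 0.56 (limma adjusted p = 1.66e-04). Of the 29 lipase partners, 5 were higher and 8 lower in the third comparison (median -0.03), with Gnai1 at 0.71, Adrb3 at -0.77, Aqp7 at -0.78 and the niacin receptor gene Hcar2 at -0.68. Of 33 genes of droplet formation and surface 5 were higher and 2 lower (median 0.03), with Vps13c at 0.29, Aifm2 at 0.26, Lpin1 at 0.24, Cav1 at -0.23 and Nsdhl at -0.28. Over all genes tested 8.47% were higher and 6.28% lower in the third comparison, near the share of the droplet list that was lower.

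The make-up of the perilipin mRNAs was described from levels per kb, as a share of the 5 genes' sum. Plin2 was the largest part in every library, 56.5% and 54.6% in the control group, 61.4% and 59.98% in the siRNA group, and 59.2% and 60.9% in the Cre group. Plin4 held 20.7% and 22.9%, then 16.7% and 17.9%, then 19.99% and 18.6%, and Plin1 held between 15.5% and 17.1% throughout. Plin5 was a small part, 2.30% and 2.20% in the control group, 3.16% and 3.02% in the siRNA group, and 2.02% and 2.17% in the Cre group. The sum of the 5 went from 9666 and 9514 normalized counts per kb to 12842 and 12794 and then 11207 and 11300.

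**Figure D3:**
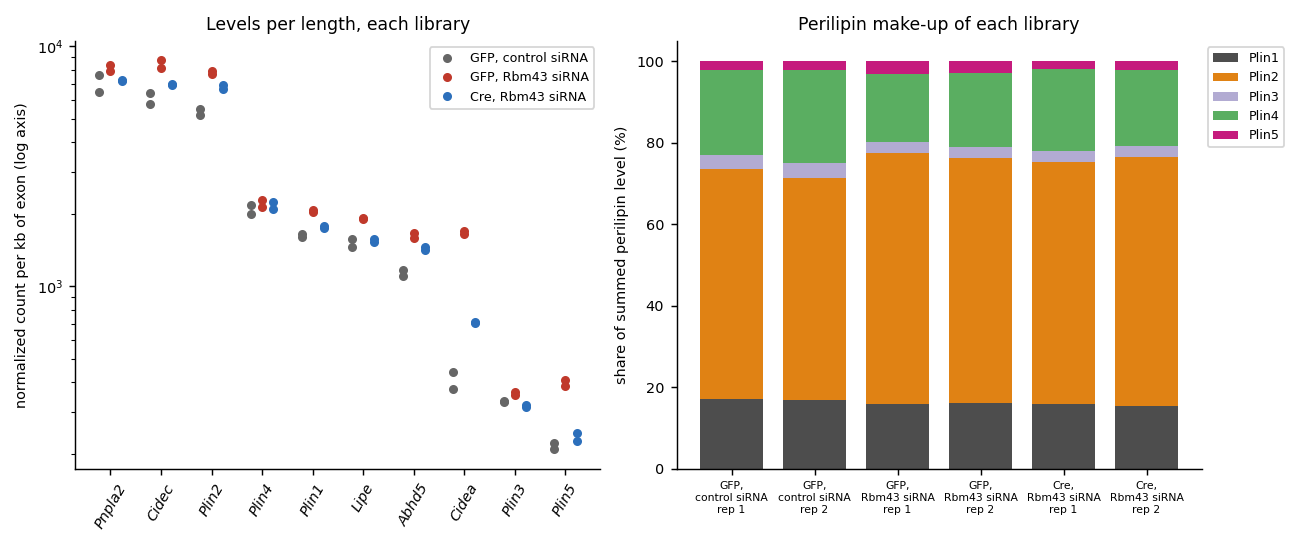
Left, normalized count per kb of exon (log axis) of the 10 genes in each of the 6 libraries, ordered by the level in the control group; right, the share (%) of each perilipin in the summed perilipin level of each library. Plin2 holds 54.6% to 61.4% of the sum, and Cidea is the gene whose points move furthest between groups.

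Ratios within a library compare pairs of genes. Plin5 to Plin1 per kb was 0.133 in the control group, 0.192 in the siRNA group and 0.133 in the Cre group. Plin2 to Plin1 was 3.28, 3.77 and 3.82 in the same order, and Abhd5 to Pnpla2 was 0.162, 0.200 and 0.200. Cidea to Cidec was 0.0666, 0.198 and 0.102. Lipe to Pnpla2 was 0.215, 0.236 and 0.216, and its libraries lay within -2.28 to -2.04 on the log2 scale.

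**Figure D4:**
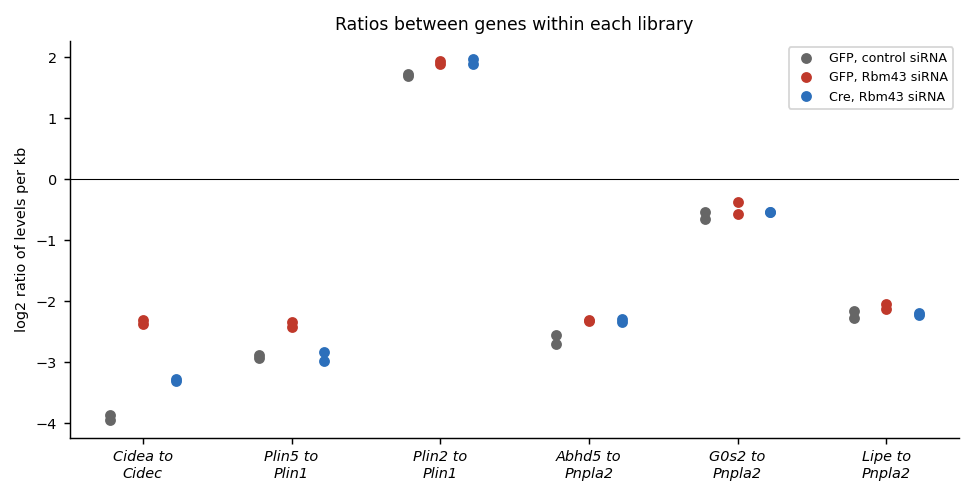
Log2 ratio of levels per kb (vertical axis) for 6 pairs of genes, 1 point per library, coloured by group. Cidea to Cidec spans -3.94 to -2.31 over the libraries, while the groups of G0s2 to Pnpla2 overlap.

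Genes next to Plin5 were examined by position, after the values of the perilipins had been seen. Within 250 kb of its start, 20 protein-coding genes were tested. In the first comparison 4 of them, Plin5 included, rose and 3 fell, beside 13.5% and 9.76% of all genes tested, so the share that rose among the genes around Plin5 was near that over all genes. Those that rose beside Plin5 were Fem1a (0.37), Ubxn6 (0.24) and Kdm4b (0.20). Lrg1, whose start is 4.41 kb from that of Plin5 on the same strand, had 5793 and 5245 normalized counts in the control group and 4140 and 4038 in the siRNA group, a fall of 0.43 on the log2 scale (limma adjusted p = 4.55e-06). In the Cre group it had 4093 and 4086. Plin4, on the other side, did not pass in any comparison. In the second comparison Plin5 was the 1 gene of the 20 that passed, and it fell, beside 5.88% of all genes that fell and 2.62% that rose.

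The genes with the pattern most like Cidea were found as the smallest distance between log2 values centred over the 6 libraries, among the 11639 genes whose normalized counts averaged 50 or more. They were Ucp1, the uncoupling protein of brown fat (distance 0.25), Gm5627 (0.52), Dnajc22 (0.65), the inositol phosphatase gene Impa2 (0.68) and the carbonic anhydrase gene Car2 (0.69). Impa2 lies beside Cidea: it ends 21.1 kb before the start of Cidea, on the same chromosome and strand. It had 101 and 102 normalized counts in the control group, 379 and 261 in the siRNA group, and 192 and 171 in the Cre group. Its log2 fold changes were 1.62 and -0.79 in the first and second comparisons. Genes picked by pattern share the directions of Cidea by the way they were picked, so these changes are no separate result. The window of 250 kb around Cidea, chosen after these values were seen, held 6 tested genes. In the first comparison 3 of them rose and 0 fell, beside 13.5% and 9.76% of all genes tested. In the second 0 rose and 3 fell, beside 2.62% and 5.88%. Cidea itself and Impa2, which was picked by pattern, are among the genes counted. In the third 4 were higher and 0 lower, beside 8.47% and 6.28%, with Tubb6 at 0.25. Afg3l2, a protease gene of the mitochondrial inner membrane whose start is 106 kb from that of Cidea, rose by 0.52 in the first comparison and fell by 0.28 in the second, and Chmp1b, Mppe1 and Tubb6 did not pass in either comparison.

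**Figure D5:**
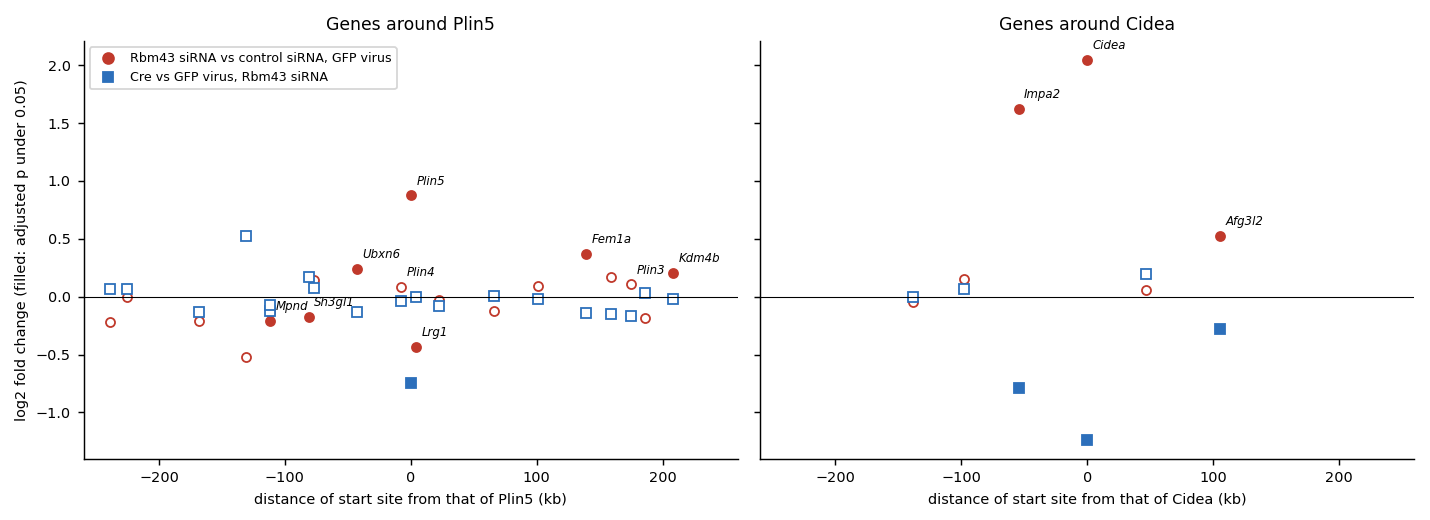
Log2 fold changes (vertical axis) of tested protein-coding genes by the distance of their start site from that of Plin5 (left) and Cidea (right) in kb, for Rbm43 siRNA (circles) and Cre virus (squares), filled where the adjusted p was under 0.05. Lrg1 at 4.41 kb from Plin5 lies at -0.43, and Impa2 at -54.4 kb from Cidea lies at 1.62 with Rbm43 siRNA.

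The genes nearest to Plin5 in pattern were Acaa2, the thiolase of mitochondrial fatty acid oxidation (distance 0.12), Sema3g (0.22), Chchd10 (0.23), Cmc2 (0.23) and the glucose transporter gene Slc2a4 (0.23). Plin5 was used because its change was the largest after that of Cidea among the members in the first comparison. Acaa2 rose by 0.81 in the first comparison and fell by 0.67 in the second, while Plin5 rose by 0.87 and fell by 0.75. This likeness follows from how Acaa2 was picked.

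Reads could be shared with overlapping genes in 4 cases, since the strand setting of the counting is not given in the sources used here. An antisense gene covers Lipe and had between 25.6 and 54.8 normalized counts, against at least 8349 for Lipe. A transcript overlapping 500 bases of Cidea on the other strand had between 14.7 and 32.2, an antisense gene overlapping 950 bases of Abhd5 was at 0 in every library, and Hdgfrp2, which overlaps 17 bases of Plin4, had between 677 and 796. Reads behind the low members numbered between 359 and 873 per library for Plin5 and between 341 and 2029 for Cidea.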

How the data were processed

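Libraries were made with a stranded mRNA kit and read from both ends, per the labels' protocols. The deposited table holds a normalized signal for each gene, in which a library's reads share 1 scale factor. Build mm10, DESeq2 (2.11.40.7), STAR (2.7.8) and fastp (0.23.2) are named, without roles, in the submitters' processing notes. Every deposited value was a whole number of reads within 0.01 read (100% of values in each library). Of the 35976 rows, 14211 with at least 10 normalized counts in at least 2 libraries were tested with limma 3.58.1 (R 4.3.3) on log2(normalized count + 1), with a mean-variance trend and 1 mean per group. All 6 libraries entered 1 fit with 3 residual degrees of freedom, and p-values were adjusted by Benjamini-Hochberg over all genes tested, at 0.05. Limma moderated each gene's variance toward the trend over all genes, so its tests and intervals use more than those 3 degrees of freedom. Every fold change is a difference of these log2 values, and errors beside it are SE. Levels per kb used the union of coding transcripts' exons in GENCODE M21.

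The members and lists were chosen with earlier results of these data known. Named genes are the 10 members, Rbm43, Ppargc1a, the reference genes Adipoq, Fabp4, Lpl and Ucp1, up to 5 genes with the smallest p per list and comparison, the 5 nearest in pattern to Cidea and Plin5, and G0s2 as a member of a listed ratio. Genes named for their p in a list had a mean normalized count of at least 50. The procedure was run on simulated data with the same spread setting for every gene and group. In these libraries the spread between replicates differed by group (chi-square per gene 4.19, 2.76 and 1.77 in the control, siRNA and Cre groups). That run therefore does not check the p-values given here. The main fit gave each gene a spread shared by all groups, so control libraries also enter the error of the second comparison. Pnpla2, for example, had an SD of 2147 normalized counts in the control group, 816 in the siRNA group and 35.2 in the Cre group. Alternatives were pseudocounts of 0.5 and 5, no filter, a minimum of 50, upper-quartile, total and TMM scaling, a replicate block, only the 2 groups compared, no trend, each library left out, and count tests of the recovered reads (DESeq2 1.42.0, edgeR 4.0.16), where edgeR called 3263, 1336 and 2111 genes in the 3 comparisons. Promoter sequences are RefSeq's (GRCm38.p6), and Cidea's was not used here.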

Additional observations from a re-analysis of the deposited data

How the results depend on the processing

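Over 18 alternatives, members called numbered 7 to 8 in the first comparison, 0 to 9 in the second and 1 to 6 in the third. Limma without the mean-variance trend called 7 in the first (adjusted p from 0.0128 for Cidea to 0.0425 for Lipe), 0 in the second and 1, Cidea, in the third. In the second it had 8 at an unadjusted p under 0.05, and edgeR and DESeq2 each called 7. Leaving out 1 library, where the lone library left in its group is assumed to vary like the other groups, gave 7 to 8, 3 to 9 and 3 to 6. Of 540 log2 fold changes of members, 490 kept direction and side of the threshold, 36 lost the call, 9 gained it and 5 turned direction. The turns were of values that had not passed: with 1 library left out, Plin4 ranged from -0.0829 to 0.0140 in the second comparison (0.0130 without replicate 2 of the Cre group), and in the third Plin4 ranged from -0.0074 to 0.11, Pnpla2 from -0.0782 to 0.15 and Lipe from -0.0150 to 0.10. Pnpla2's call in the first comparison was lost with no filter, no trend, only the 2 groups, and without replicate 2 of either group compared or either Cre library (adjusted p = 0.0518 to 0.214).

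Counts over all genes went from 3301 to 1304 without the trend, 2045 with DESeq2 and 2115 without replicate 2 of the siRNA group. In the second comparison they went from 1208 to 609 with no filter, 0 without the trend (2355 at an unadjusted p under 0.05; edgeR 1336, DESeq2 826), 2083 with only the 2 groups, and with 1 library left out to between 312 (without Cre replicate 1; 329 without replicate 2; 468 without replicate 2 of the siRNA group) and 2068 (without control replicate 2; 2060 without replicate 1). In the third they went from 2096 to 1251 with no filter, 433 without the trend, 1229 with DESeq2, and 770 or 827 when replicate 1 or 2 of the Cre group was left out. The cause was not tested. Differences between replicates were little correlated between groups (0.019, -0.042 and -0.037). The labels do not say whether libraries with the same replicate number were paired. With the replicate block 8, 7 and 4 members were called, and 3412, 1304 and 2214 genes. The fewest reads behind a member in 1 library were 341, for Cidea.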
